A study of Mus musculus with 5 samples.

Results

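The SLC25 family comprises the carriers that move metabolites, nucleotides, inorganic ions and cofactors across the mitochondrial inner membrane. Its mouse genes are named Slc25a followed by a number. The members described here were all genes with such a symbol, pseudogenes left out, that had at least 10 counts in at least 2 of the 5 pools. Among the deposited genes 47 had an Slc25a symbol and 41 of these passed the filter, out of 14880 genes tested and 49671 genes listed, and 1 Slc25a pseudogene was left out. The filter used the size of the counts and not the difference between genotypes, but the members were chosen with earlier results of these data known.

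RNA was sequenced from hearts of C57BL6/J mice at postnatal day 2, from animals with an intact Charme locus (CharmeWT) and from littermates in which a PolyA signal inserted into the locus ends transcription of this muscle lncRNA early (CharmeKO). Whole hearts were pooled by genotype before extraction, 9 hearts in each of 3 CharmeWT pools and 3 hearts in each of 2 CharmeKO pools, so an effect of genotype and one of pool size cannot be told apart. PolyA RNA was made into stranded libraries, and the deposited values are counts of fragments per gene, between 16721055 and 21646378 per pool. Levels are given as FPKM, the count of a gene divided by its length and by the TMM-scaled library size. The length is that of all annotated exons of the gene merged, and not of a single transcript. Differences are given as log2 fold changes of CharmeKO over CharmeWT from edgeR.

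A carrier of this family is built from 3 tandem repeats and exchanges or co-transports its substrate down a gradient or at the expense of the proton motive force. The heart lives on mitochondrial ATP, so its carriers for ADP, ATP and phosphate are among its most abundant mitochondrial proteins. Around birth heart muscle turns from glucose and lactate towards fatty acids, whose acyl groups enter the matrix as carnitine esters through the carnitine/acylcarnitine carrier Slc25a20.

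Charme had 810, 183 and 276 counts in CharmeWT pools 1 to 3 and 57 and 79 counts in CharmeKO pools 1 and 2, lower in both CharmeKO pools than in any CharmeWT pool (log2 fold change -2.49, standard error 0.549, adjusted p = 0.0763). The count covers the whole gene and does not separate the parts before and after the insertion. The 7 cardiomyocyte markers, which include Myh6, Tnnt2 and Myl2, took 3.6% to 4.13% of the counts in CharmeWT pools and 3% and 3.34% in CharmeKO pools, and none of the 7 was called by the quasi-likelihood test (1 at an unadjusted p under 0.05; the likelihood ratio test called Myl7 higher, and DESeq2 called 1 higher and 1 lower). Myh6 had 321809, 304867 and 277995 counts in CharmeWT pools and 103715 and 279647 in CharmeKO pools. It was the marker DESeq2 called lower. The log2 fold change was positive in 4 of the 7 markers and negative in 3, so the summed share does not describe each of them. Both CharmeKO pools stood apart. In CharmeKO pool 1 the genes of the mitochondrial genome took 21.1% of the counts, against 9.68% to 11.1% in the other pools. In CharmeKO pool 2 the 5 salivary gland genes found in the table took 2.55% of the counts, against 0.0274% in CharmeKO pool 1 and almost nothing in CharmeWT pools, and the 7 adipose markers took 0.208%, against 0.0543% to 0.0704% elsewhere. Of the skeletal muscle markers 4 of 7 were tested. In FPKM all 4 lay above every CharmeWT pool in both CharmeKO pools, as did 17.8% of all genes. Myh8 was called higher (35, 34 and 50 counts in CharmeWT pools, 114 and 503 in CharmeKO pools). Counts were low in Tnnt3 (21, 15 and 23 in CharmeWT pools, 21 and 175 in CharmeKO pools). They were also low in Actn3 (13, 6 and 12, then 11 and 37). For these 2 genes the counts of CharmeKO pool 1 were not above those of every CharmeWT pool. The list took at most 0.00353% of the counts, in CharmeKO pool 2, and Myh4 had none in any pool. In such bulk samples fewer cells of a type and less RNA per cell cannot be told apart.

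The promoters of the 3 carriers called lower by at least 1 of the tests used below are shown, since most of the results on single genes turn on them. They are RefSeq windows of 300 bases on GRCm38.p6, from 250 bases before to 50 bases after the annotated start, each read 5′ to 3′ on the strand of its gene. Capitals mark the letters of AAGGTCA, a half-site known to be bound by estrogen-related receptors, and of the GC box GGGCGG, on either strand. The windows lie at chr4:141623785-141624084 (minus strand, Slc25a34), chr8:70212232-70212531 (minus strand, Slc25a42) and chr9:108661886-108662185 (plus strand, Slc25a20).
Slc25a34: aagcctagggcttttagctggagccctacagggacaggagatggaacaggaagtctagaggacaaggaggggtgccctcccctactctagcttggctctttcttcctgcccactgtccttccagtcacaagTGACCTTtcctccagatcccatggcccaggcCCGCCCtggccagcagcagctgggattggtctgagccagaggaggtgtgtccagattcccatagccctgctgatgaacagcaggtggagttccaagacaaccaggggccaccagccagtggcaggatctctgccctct
Slc25a42: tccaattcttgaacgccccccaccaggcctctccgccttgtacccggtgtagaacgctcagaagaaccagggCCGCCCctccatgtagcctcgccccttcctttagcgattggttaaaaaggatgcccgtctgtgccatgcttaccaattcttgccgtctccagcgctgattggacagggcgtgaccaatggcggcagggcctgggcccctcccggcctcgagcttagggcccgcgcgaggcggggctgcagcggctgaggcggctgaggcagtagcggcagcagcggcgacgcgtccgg
Slc25a20: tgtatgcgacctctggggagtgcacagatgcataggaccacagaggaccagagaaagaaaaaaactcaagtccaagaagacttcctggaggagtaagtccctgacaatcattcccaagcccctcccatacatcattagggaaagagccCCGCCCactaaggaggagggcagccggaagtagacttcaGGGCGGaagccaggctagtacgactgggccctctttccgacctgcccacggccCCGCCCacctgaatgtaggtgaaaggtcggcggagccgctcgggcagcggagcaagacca

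Windows were found for 32 of the 41 members, 41 windows in all with alternative starts, and 9 members had none. AAGGTCA was present in 1 member, Slc25a34, where its first base is base 132 of the window on the opposite strand, and in 4.72% of all 32851 windows. The shorter AGGTCA, which AAGGTCA contains, was in 9.76% of member windows and 16.3% of all windows. GGGCGG was in 90.2% of member windows (29 members) against 35.7% of all, CACGTG in 19.5% (7 members) against 7.15%, and CCAAT in 51.2% against 37.4%. TATAAA was in no member window and in 13.6% of all windows. These are matches of letters on both strands and not measured binding.

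The level of the members spanned a 6131-fold range in CharmeWT hearts, from Slc25a4 to Slc25a43. Slc25a4, the ADP/ATP carrier of heart and skeletal muscle, had the highest level at 1974, 1870 and 1688 FPKM in CharmeWT pools and 2115 and 1517 FPKM in CharmeKO pools. It held 61.5% of the summed FPKM of the family in CharmeWT hearts, and the 3 highest members held 83.2%. The next were Slc25a5, the ADP/ATP carrier of proliferating cells and most other tissues, at 406 ± 59.8 FPKM (SD, n = 3), Slc25a3, the phosphate and copper carrier, at 245 ± 20.7, Slc25a11, the oxoglutarate/malate carrier, at 157 ± 26.4, Slc25a39, a glutathione carrier, at 67.9 ± 4.52, and Slc25a20 at 37.5 ± 2.0 FPKM. Slc25a20 and Slc25a34, the next in order at 35.5 ± 3.41, did not differ beyond their spread. Slc25a3 had more counts than Slc25a5 in each CharmeWT pool (27989, 26058 and 24611 against 13193, 13738 and 11597). Its merged exons span 5550 bases against 1646 in Slc25a5, so the order and the shares of the summed FPKM rest on the lengths used. A mean of at least 10 FPKM was reached by 12 members, and 5 stayed under 1 FPKM.

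The summed FPKM of the 41 members was 2998 ± 226 (SD, n = 3) in CharmeWT pools, and 3413 and 2672 in CharmeKO pools 1 and 2, so the genotypes overlapped. The members' share of all counts was 0.816% to 0.877% in CharmeWT pools, and lower in CharmeKO pools, at 0.735% and 0.742%. The share is taken of a total that in CharmeKO pool 1 includes the larger mitochondrial genome fraction and in CharmeKO pool 2 the salivary gland RNA.

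**Figure D1:**
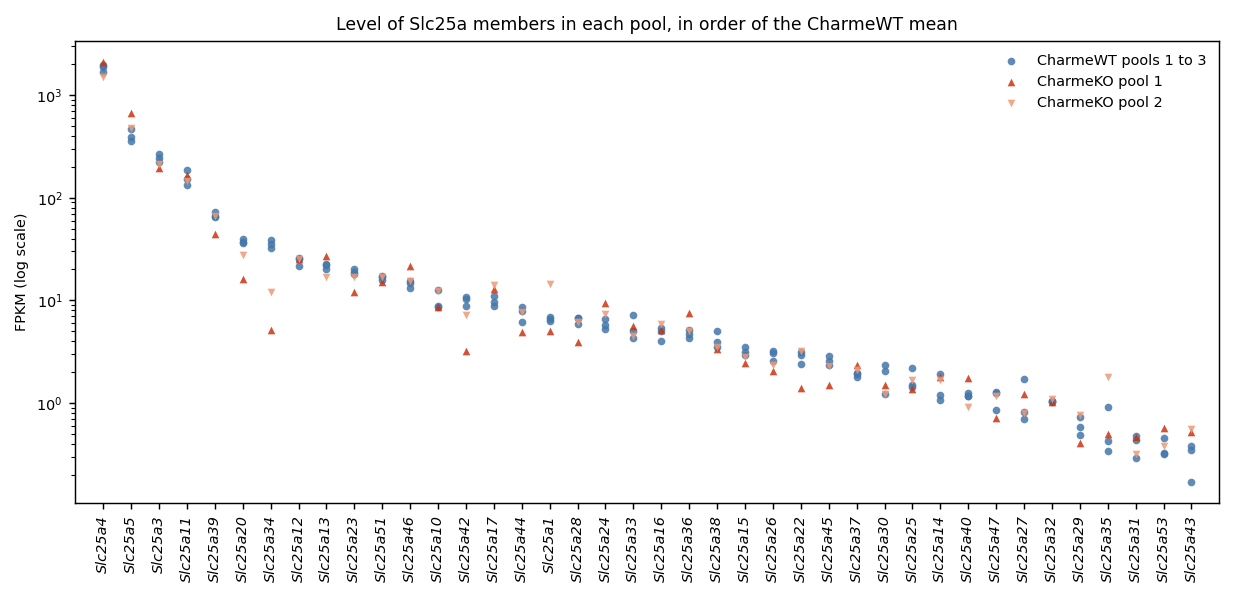
FPKM (log scale) of the members in each pool, 1 of them left out, with CharmeWT pools as circles, CharmeKO pool 1 as upright triangles and CharmeKO pool 2 as inverted triangles, in order of the CharmeWT mean. Slc25a4 lies at the left, between 1517 and 2115 FPKM, and the wide gap between circles and triangles at the seventh place is Slc25a34.

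The comparison of CharmeKO with CharmeWT asks which carriers change in hearts that lack full-length Charme. Of the 41 members the quasi-likelihood test called 1 lower, Slc25a34, and none higher, at an adjusted p under 0.1 over all genes tested. Over all genes, 0.524% were called lower and 1.53% higher by the same rule. At an unadjusted p under 0.05 there were 3 members lower and 2 higher (Slc25a17 and Slc25a24), where 8.01% of all genes were lower and 10.6% higher. The likelihood ratio test, which the methods of the study name, and DESeq2 each called 3 members lower, Slc25a34, Slc25a20 and Slc25a42, and none higher. Over all genes the likelihood ratio test called 2.35% lower and 3.92% higher, and DESeq2 called 3.21% lower and 4.33% higher.

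The median log2 fold change of the members was -0.02, against 0.02 for all genes tested, with a range of -2.03 to 1.11. It was below 0 in 22 members and above 0 in 19. Both CharmeKO pools lay above every CharmeWT pool in 6 members (14.6%), where 17.8% of all genes did, and below every CharmeWT pool in 9 members (22%), where 18.2% of all genes did. The first were Slc25a5, Slc25a46, Slc25a17, Slc25a24, Slc25a37 and Slc25a43. The second were Slc25a3, Slc25a20, Slc25a34, Slc25a23, Slc25a42, Slc25a38, Slc25a15, Slc25a26 and Slc25a45. These shares are near those of all genes.

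**Figure D2:**
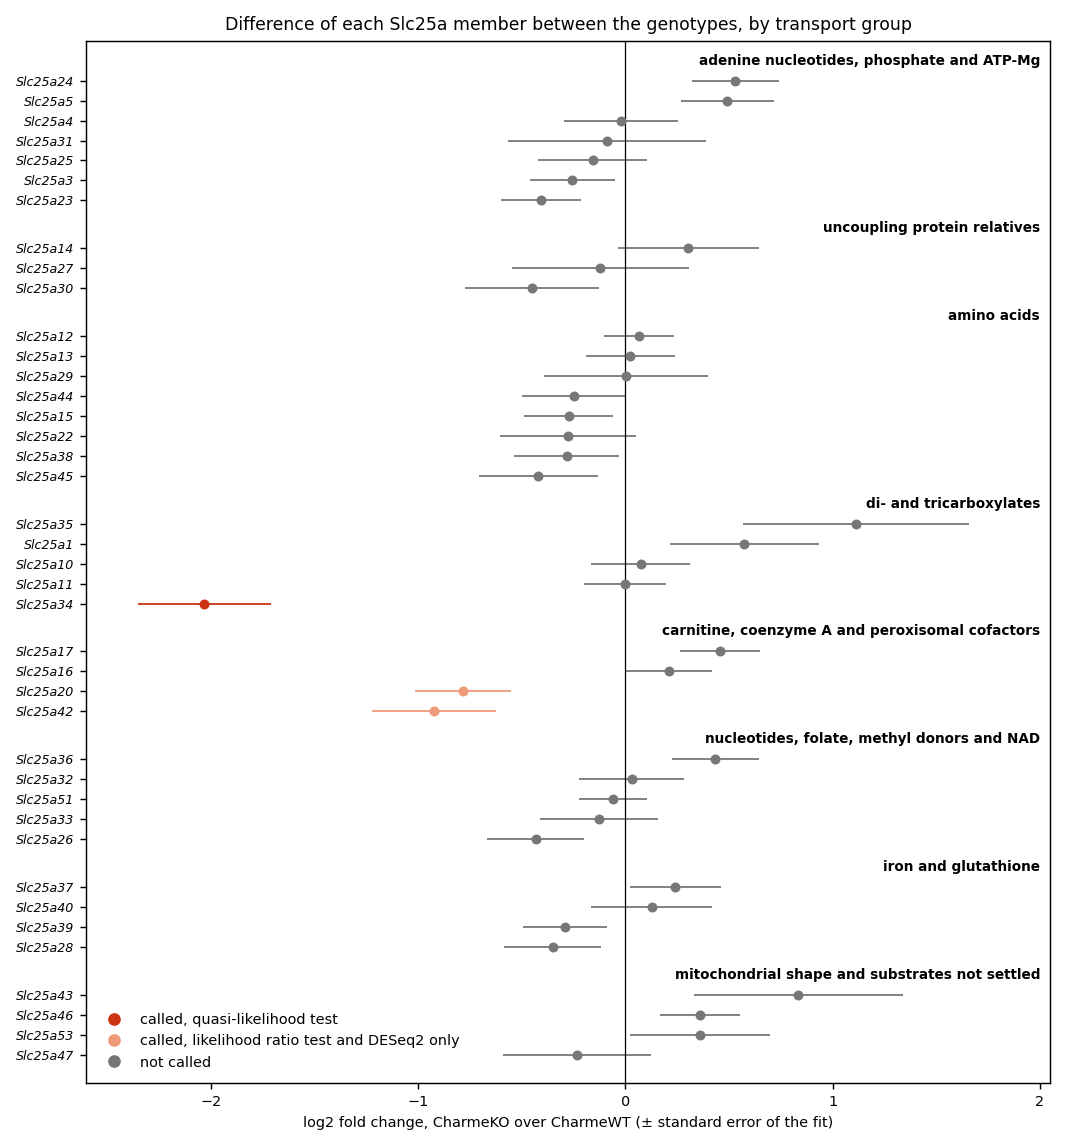
Log2 fold change of the members, 1 of them left out (CharmeKO over CharmeWT, points) with the standard error of the fit (lines), grouped by what the carriers transport. Slc25a34 stands alone at -2.03, Slc25a42 at -0.92 and Slc25a20 at -0.78 are the lighter points, and most other members lie within 0.5 of 0.

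Slc25a34 (chr4:141618824-141623821, minus strand) belongs with the carriers of dicarboxylates by sequence, and what it carries in mammals is not settled. It had 2143, 1517 and 1861 counts in CharmeWT pools 1 to 3, and 195 and 719 counts in CharmeKO pools 1 and 2. Its level was 39.0, 32.2 and 35.3 FPKM in CharmeWT pools, and 5.17 and 12.1 FPKM in CharmeKO pools. Both CharmeKO pools were thus far below the lowest CharmeWT pool, pool 1 at 14.6% and pool 2 at 34% of the CharmeWT mean. Slc25a34 fell by 2.03 on the log2 scale (standard error 0.320, adjusted p = 0.0383, edgeR quasi-likelihood test). In the order of levels it moved from rank 7 in CharmeWT to rank 15 in CharmeKO hearts. The call was lost without CharmeWT pool 1 (log2 fold change -1.96, adjusted p = 0.137) or without CharmeWT pool 3 (-2.04, adjusted p = 0.232), fits in which 2 and 0 genes were called in all. With CharmeKO pool 1 left out the log2 fold change was -1.55 (adjusted p = 0.000643), and with CharmeKO pool 2 left out it was -2.78 (adjusted p = 0.000165).

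Slc25a20 (chr9:108662088-108684641, plus strand) exchanges acylcarnitine for carnitine across the inner membrane. Its level was 36.8, 39.7 and 35.8 FPKM in CharmeWT pools, and 16.0 and 27.5 FPKM in CharmeKO pools 1 and 2. CharmeWT pools were close to each other and both CharmeKO pools were lower, but CharmeKO pool 1 was at 42.8% and pool 2 at 73.3% of the CharmeWT mean. The log2 fold change was -0.78 (standard error 0.232), with an adjusted p of 0.15 in the quasi-likelihood test (0.0636 with the likelihood ratio and 0.0379 with DESeq2). Without CharmeKO pool 1 it was -0.45 (adjusted p = 0.236), and without CharmeKO pool 2 it was -1.23 (adjusted p = 0.00193, quasi-likelihood test).

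Slc25a42 (chr8:70184340-70212305, minus strand) brings coenzyme A into the matrix. It was at 10.7, 8.8 and 10.2 FPKM in CharmeWT pools, and at 3.21 and 7.18 FPKM in CharmeKO pools. Again CharmeKO pool 1 was the lowest and CharmeKO pool 2 lay between it and the CharmeWT pools. The log2 fold change was -0.92 (standard error 0.300), with an adjusted p of 0.173 in the quasi-likelihood test (0.0758 with the likelihood ratio and 0.0465 with DESeq2). Without CharmeKO pool 1 it was -0.46 (adjusted p = 0.258), and without CharmeKO pool 2 it was -1.63 (adjusted p = 0.00108, quasi-likelihood test).

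**Figure D3:**
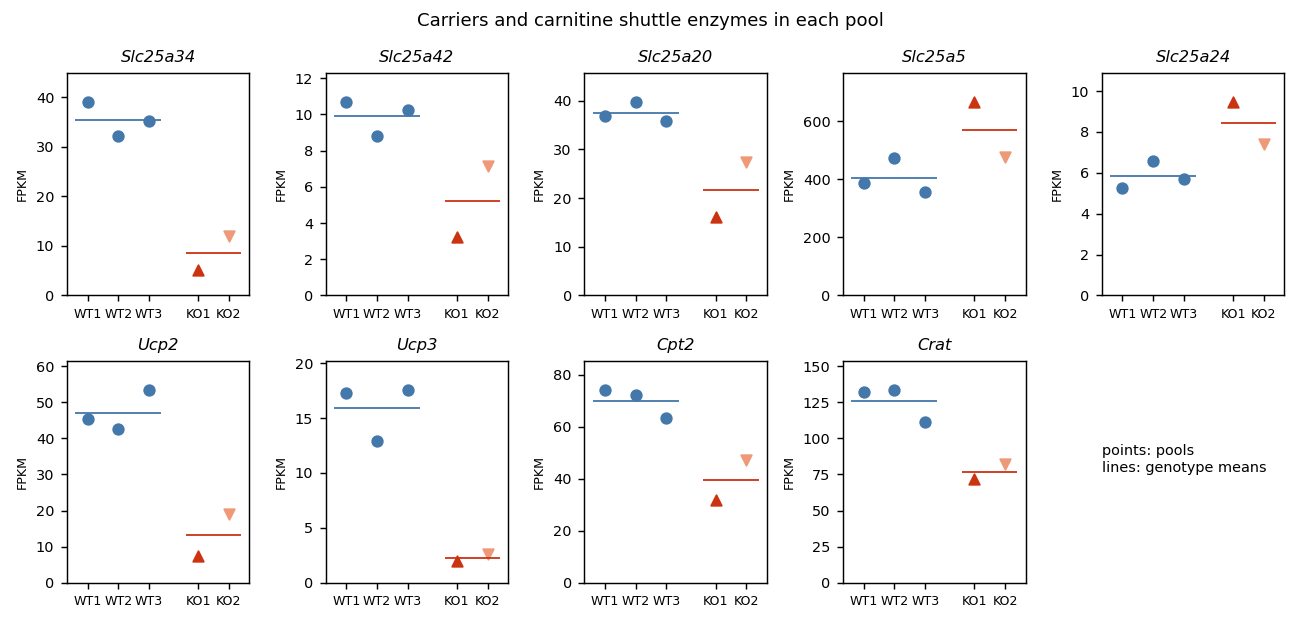
FPKM (from 0, linear) of 5 members, of Ucp2 and Ucp3, and of the carnitine shuttle enzymes Cpt2 and Crat in each pool, with lines at the mean of each genotype. In Slc25a34, Slc25a42, Slc25a20, Ucp2, Ucp3, Cpt2 and Crat both CharmeKO pools lie below all 3 CharmeWT pools, and in Slc25a5 and Slc25a24 they lie above.

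The genes of the carnitine shuttle, with which Slc25a20 works, were described as a list of 6, of which 5 belong to the carnitine acyltransferase family and Slc22a5 codes for the carnitine transporter of the plasma membrane. All 6 had a negative log2 fold change (median -0.55), as did 48.2% of all genes, and in 5 both CharmeKO pools were below every CharmeWT pool, as in 18.2% of all genes. Of the 6, Cpt1c and Cpt1b were low by these counts, at 0.925 and 0.843 FPKM on average in CharmeWT pools. They had 49 to 122 and 29 to 64 counts in a pool. Loss of their reads to genes that overlap them on the same strand was not tested, so their true level may be higher. The quasi-likelihood test called none (3 at an unadjusted p under 0.05), while the likelihood ratio test and DESeq2 each called 3 lower, Crat, Cpt2 and Cpt1a (2.35% and 3.21% of all genes). Crat, the carnitine acetyltransferase of the matrix and the highest of the list, was at 132, 134 and 111 FPKM in CharmeWT pools and at 71.6 and 81.9 FPKM in CharmeKO pools (log2 fold change -0.71, standard error 0.194, adjusted p = 0.133). Cpt2, which frees the acyl group inside the matrix, had a log2 fold change of -0.82 (adjusted p = 0.112), and Cpt1a, which forms acylcarnitine at the outer membrane, one of -0.84 (adjusted p = 0.148). CharmeKO pools 1 and 2 were at 57.0% and 65.2% of the CharmeWT mean in Crat. They were further apart in Cpt2 (45.3% and 67.7%) and Cpt1a (40.1% and 71.4%), with CharmeKO pool 1 the lower. The list was written with earlier results of these data known.

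Some carriers of the family are named otherwise, and 5 of them were tested. Ucp3, the uncoupling protein of heart and skeletal muscle, was at 17.3, 12.9 and 17.6 FPKM in CharmeWT pools and at 1.99 and 2.59 FPKM in CharmeKO pools. Both CharmeKO pools were close together and far below the CharmeWT pools, and Ucp3 fell by 2.79 on the log2 scale (standard error 0.247, adjusted p = 0.00834). Ucp2, a widely expressed relative, was at 45.3, 42.5 and 53.5 FPKM in CharmeWT pools and at 7.42 and 19.1 FPKM in CharmeKO pools, and fell by 1.83 (standard error 0.347, adjusted p = 0.0497). Ucp1, the uncoupling protein of brown fat, had 77, 0 and 0 counts in CharmeWT pools, 521 in CharmeKO pool 1 and 15830 in CharmeKO pool 2. It was called higher by both edgeR tests and not by DESeq2 (log2 fold change 8.17, adjusted p = 0.0419 in the quasi-likelihood test and 0.189 in DESeq2), with its counts almost all in the pool that also held 1815 counts of the adipose gene Adipoq (10, 0 and 4 in CharmeWT pools and 41 in CharmeKO pool 1). The outer membrane proteins Mtch1 and Mtch2 had log2 fold changes of -0.10 (adjusted p = 0.772) and 0.64 (adjusted p = 0.138). In Mtch2 both CharmeKO pools were above every CharmeWT pool, and the likelihood ratio test (adjusted p = 0.0661) and DESeq2 (adjusted p = 0.0428) called it higher.

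Among the carriers of adenine nucleotides and phosphate, 7 of 8 were tested and none was called (median log2 fold change -0.09, 1 at an unadjusted p under 0.05, and none by the likelihood ratio test or DESeq2). Slc25a4 (chr8:46206797-46211284, minus strand) had a log2 fold change of -0.02 (standard error 0.276), with CharmeKO pool 1 above and CharmeKO pool 2 below the CharmeWT pools. Slc25a5 (chrX:36795651-36798807, plus strand) was at 389, 472 and 356 FPKM in CharmeWT pools and at 666 and 476 FPKM in CharmeKO pools. CharmeKO pool 2 was barely above the highest CharmeWT pool (log2 fold change 0.49, standard error 0.223, adjusted p = 0.273). Slc25a3 was lower in both CharmeKO pools, at 197 and 214 FPKM, than in any CharmeWT pool, whose lowest was 224 FPKM (log2 fold change -0.26, adjusted p = 0.520). Slc25a31, the ADP/ATP carrier of germ cells, stayed at or under 0.475 FPKM in each pool.

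The calcium-regulated ATP-Mg/phosphate carriers set the adenine nucleotide content of the matrix. Slc25a24 was at 5.25, 6.57 and 5.69 FPKM in CharmeWT pools and at 9.46 and 7.42 FPKM in CharmeKO pools, above in both (log2 fold change 0.53, standard error 0.210, adjusted p = 0.232). Slc25a23, the most abundant of the 3, was below in both, at 12.1 and 16.8 FPKM against 18.2 to 20.4 FPKM (log2 fold change -0.41, standard error 0.192, adjusted p = 0.288). Slc25a25 overlapped between the genotypes (-0.16, adjusted p = 0.770).

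The ratio of related carriers within a pool does not depend on the scaling of the libraries, and 6 pairs were compared with an exact two-sided permutation test over the 5 pools, whose smallest possible p is 0.1. The FPKM ratio of Slc25a4 to Slc25a5 was 5.07, 3.96 and 4.74 in CharmeWT pools, and 3.17 and 3.19 in CharmeKO pools. Both CharmeKO values were below every CharmeWT value and nearly equal to each other, although the 2 pools differed in the level of either gene (log2 difference -0.52, exact permutation p = 0.1, adjusted over the 6 pairs 0.15). The ratio of Slc25a24 to Slc25a23 was 0.288, 0.348 and 0.279 in CharmeWT pools and 0.783 and 0.442 in CharmeKO pools (log2 difference 0.95, exact permutation p = 0.1). These 2 genes differ in GC content (42.5% and 56.4%), with which the levels in CharmeKO pool 1 went (below). With a correction for gene length and GC content their log2 fold changes were 0.18 and -0.18. The same correction put Slc25a4 at -0.06 and Slc25a5 at 0.25, from -0.02 and 0.49 without it. It put Slc25a25 at -0.09, Slc25a37 at 0.25 and Slc25a28 at -0.28, from -0.16, 0.24 and -0.35. No ratio was computed with that correction. Slc25a24 to Slc25a25 (0.67) and the mitoferrins Slc25a37 to Slc25a28 (0.63) also did not overlap, each with an exact permutation p of 0.1. The pyrimidine nucleotide carriers Slc25a33 to Slc25a36 (-0.51, exact permutation p = 0.3) and the aspartate/glutamate carriers Slc25a12 to Slc25a13 (0.08, exact permutation p = 0.7) overlapped. Slc25a4 and Slc25a5 are alike in sequence and Slc25a5 has processed pseudogenes, and only uniquely mapped reads were counted, so part of their reads may be lost or misplaced.

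Of the amino acid carriers 8 of 10 were tested, and none was called by any of the 3 tests or reached an unadjusted p under 0.05. The median log2 fold change was -0.26, and in 3, Slc25a15 (ornithine), Slc25a38 (glycine) and Slc25a45, both CharmeKO pools were below every CharmeWT pool, with log2 fold changes of -0.27, -0.28 and -0.42 (18.2% of all genes were below in this way). The aspartate/glutamate carriers of the malate-aspartate shuttle were the most abundant. Slc25a12 was at 24.1 ± 2.23 FPKM (SD, n = 3) in CharmeWT pools and at 25.4 and 25.1 FPKM in CharmeKO pools (log2 fold change 0.06, standard error 0.169). Slc25a13 was at 21.6 ± 1.43 FPKM in CharmeWT pools, while CharmeKO pool 1 at 27.1 FPKM was above and CharmeKO pool 2 at 16.9 FPKM below them. The glutamate carrier Slc25a22 also differed between CharmeKO pools, at 1.40 and 3.22 FPKM against 2.38 to 3.14 FPKM in CharmeWT pools. Slc25a44, which carries branched-chain amino acids, and Slc25a29, which carries basic ones, overlapped between the genotypes (log2 fold changes -0.25 and 0.00).

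The 4 enzymes of the malate-aspartate shuttle were not called either, by any of the 3 tests, and none reached an unadjusted p under 0.05 (median log2 fold change -0.08). Mdh1, the cytosolic malate dehydrogenase, was the most abundant, at 796, 763 and 614 FPKM in CharmeWT pools and 1260 and 805 FPKM in CharmeKO pools (log2 fold change 0.51, adjusted p = 0.328). Slc25a11, the oxoglutarate/malate carrier of the shuttle, was at 157 FPKM on average in both genotypes (log2 fold change 0.00, standard error 0.197).

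Among the other carriers of di- and tricarboxylates, 2 had their high values in CharmeKO pool 2. The citrate carrier Slc25a1, which exports citrate for lipid synthesis, was at 6.93, 6.59 and 6.36 FPKM in CharmeWT pools, 5.07 FPKM in CharmeKO pool 1 and 14.5 FPKM in CharmeKO pool 2. Slc25a35, a relative of Slc25a34, was at 0.423, 0.908 and 0.344 FPKM in CharmeWT pools and at 0.501 and 1.80 FPKM in CharmeKO pools. The log2 fold changes over both pools were 0.57 (standard error 0.359, adjusted p = 0.407) and 1.11 (standard error 0.545, adjusted p = 0.303). Without CharmeKO pool 2 they were -0.39 (adjusted p = 0.259) and -0.14 (adjusted p = 0.886), and without CharmeKO pool 1 both were called higher, at 1.13 (adjusted p = 0.00676) and 1.72 (adjusted p = 0.0393). Slc25a48, which did not pass the filter, had 24 counts in CharmeKO pool 2 and 0 or 1 in the others. CharmeKO pool 2 was the pool with salivary gland and adipose RNA and the highest share of skeletal muscle markers: Plin1 had 1722 counts there against 54 in CharmeKO pool 1 and 3 to 15 in CharmeWT pools, and Lep (7 counts) and Elovl3 (38 counts) had at most 1 count in any other pool. The part of that RNA in these levels was not tested. The dicarboxylate carrier Slc25a10 overlapped between the genotypes (log2 fold change 0.07).

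Beside Slc25a20 and Slc25a42, the group of carnitine and coenzyme A carriers holds Slc25a16, an inner membrane carrier linked to coenzyme A, at 0.21 (adjusted p = 0.605), and Slc25a17, the carrier of the peroxisomal membrane. Slc25a17 was at 11, 9.68 and 8.76 FPKM in CharmeWT pools and at 12.8 and 14.2 FPKM in CharmeKO pools. Both CharmeKO pools were above every CharmeWT pool, CharmeKO pool 2 the higher of the pair (log2 fold change 0.46, standard error 0.192, adjusted p = 0.248).

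Of the carriers of nucleotides and cofactors 6 were tested, and none was called by any of the 3 tests or reached an unadjusted p under 0.05. Slc25a26, which imports S-adenosylmethionine, was at 2.57, 3.21 and 3.08 FPKM in CharmeWT pools and at 2.03 and 2.33 FPKM in CharmeKO pools (log2 fold change -0.43, standard error 0.233, adjusted p = 0.342). Slc25a36, a pyrimidine nucleotide carrier, was at 7.61 FPKM in CharmeKO pool 1 and at 5.03 FPKM in CharmeKO pool 2, the latter within the CharmeWT range of 4.27 to 5.09 FPKM. The NAD carrier Slc25a51 (-0.06), the folate carrier Slc25a32 (0.03) and Slc25a33 (-0.13) had log2 fold changes within 0.15 of 0.

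The iron and glutathione carriers numbered 4, with none called by any of the 3 tests and none at an unadjusted p under 0.05. Slc25a37, the mitoferrin of red cell precursors, was at 1.88 ± 0.083 FPKM (SD, n = 3) in CharmeWT pools and at 2.35 and 2.09 FPKM in CharmeKO pools (log2 fold change 0.24, adjusted p = 0.570). All 6 tested erythroid markers had positive log2 fold changes, and the list took 0.0771% to 0.115% of counts in CharmeWT pools and 0.176% and 0.145% in CharmeKO pools. Hba-a1 (0.76, adjusted p = 0.0742) and Hbb-bt (1.09, adjusted p = 0.0801) were called higher. The part of red cell RNA in the level of Slc25a37 was not tested. Slc25a28, the mitoferrin of other tissues (-0.35), and the glutathione carriers Slc25a39 (-0.29) and Slc25a40 (0.13) overlapped between the genotypes.

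The uncoupling protein relatives Slc25a14 (0.30), Slc25a27 (-0.12) and Slc25a30 (-0.45) were at 1.08 to 1.86 FPKM on average in CharmeWT pools and overlapped between the genotypes. Slc25a46, an outer membrane protein that shapes mitochondria, was at 15.6, 13.1 and 14.6 FPKM in CharmeWT pools and at 21.5 and 15.6 FPKM in CharmeKO pools, so that CharmeKO pool 2 stood just above CharmeWT pool 1 (log2 fold change 0.36, adjusted p = 0.338). Slc25a43, whose substrate is not settled, was at 0.382, 0.350 and 0.171 FPKM in CharmeWT pools and at 0.517 and 0.554 FPKM in CharmeKO pools, with at most 22 counts in a pool (log2 fold change 0.83, standard error 0.506, adjusted p = 0.393). Slc25a47 (-0.23) and Slc25a53 (0.36) overlapped between the genotypes.

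At the edge of the filter, the 3 members just inside were Slc25a43 with 6 to 22 counts, Slc25a31 with 11 to 20 and Slc25a29 with 15 to 44. Outside it, Slc25a18, the second glutamate carrier, had 1 to 6 counts, Slc25a21 had 0 to 3, and Slc25a2, the second ornithine carrier, had 0 to 5. Slc25a41 and Slc25a54 had 0 counts in every pool, a depth at which 3 counts would be 0.139 to 0.179 CPM.

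Pairs of genes with an Slc25a symbol lie side by side in the genome (GRCm38). Slc25a29 and Slc25a47 on chromosome 12 are transcribed away from each other from starts separated by 162 bases, and had log2 fold changes of 0.00 and -0.23. Slc25a43 and Slc25a5 on chromosome X, 18448 bases apart on the same strand, were both above every CharmeWT pool in both CharmeKO pools. Slc25a54 lies 6461 bases before Slc25a24 on chromosome 3 and had no counts, and Slc25a41 lies 2056 bases from Slc25a23 on chromosome 17 and had none either. Of the carriers named otherwise, Ucp3 (chr7:100472990-100486432) and Ucp2 (chr7:100493337-100502020) lie near each other on the plus strand, and both were called lower.

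The 2 CharmeKO pools differed in the members. CharmeKO pool 1 was below CharmeKO pool 2 in 25 of 41 members (61.0%), against 50.5% of all genes tested. It was below every CharmeWT pool in 19 members (46.3%, against 38.6% of all genes), whereas CharmeKO pool 2 was in 12 (29.3%, against 29.9%). The median log2 difference from the CharmeWT mean over the members was -0.14 in CharmeKO pool 1 and 0.01 in CharmeKO pool 2. Over all genes the quartiles of this difference were -0.43 and 0.44 in CharmeKO pool 1 and -0.22 and 0.24 in CharmeKO pool 2, so that CharmeKO pool 1 was the wider of the pair. With CharmeKO pool 2 left out, 8 members were called lower and 4 higher, in a fit that called 4607 genes and assumed the lone pool to vary like the CharmeWT pools. Slc25a34 was the only member called with each of the CharmeKO pools left out in turn.

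**Figure D4:**
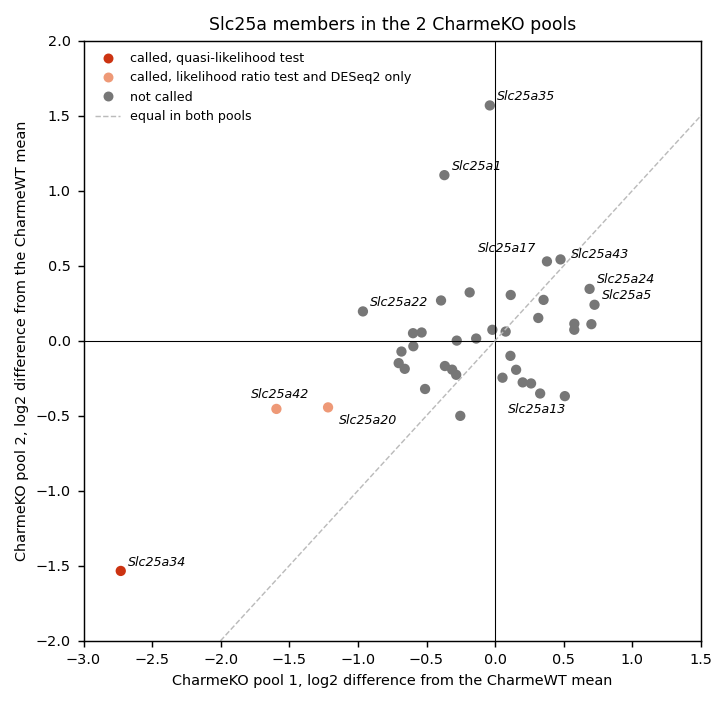
Log2 difference of the members, 1 of them left out, from the CharmeWT mean in CharmeKO pool 1 (horizontal) and CharmeKO pool 2 (vertical), with a dashed line where both are equal. Slc25a34 lies at -2.73 and -1.54, Slc25a20 and Slc25a42 lie further down in CharmeKO pool 1 than in pool 2, and Slc25a1 and Slc25a35 are high in CharmeKO pool 2 alone.

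In CharmeKO pool 1 members whose transcripts are rich in G and C tended to be low. Across the 41 members, Spearman's rho between the GC content of the longest transcript and the log2 difference from the CharmeWT mean was -0.67 in CharmeKO pool 1 (Pearson's r -0.58) and 0.02 in CharmeKO pool 2 (r 0.04). Over the 14852 tested genes with a GC content it was -0.54 and -0.06. All points of a pool come from 1 library, and the values are a description across genes, which are not independent replicates. With a per-pool correction for gene length and GC content, Slc25a34 had a log2 fold change of -1.98 (adjusted p = 0.0217), Slc25a20 -0.82 (adjusted p = 0.120) and Slc25a42 -0.74 (adjusted p = 0.149). The same correction brought Slc25a5 from 0.49 to 0.25, Slc25a17 from 0.46 to 0.19, Slc25a24 from 0.53 to 0.18 and Slc25a46 from 0.36 to 0.04. Among the members below every CharmeWT pool, it brought Slc25a23 from -0.41 to -0.18, while Slc25a3 went from -0.26 to -0.45.

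**Figure D5:**
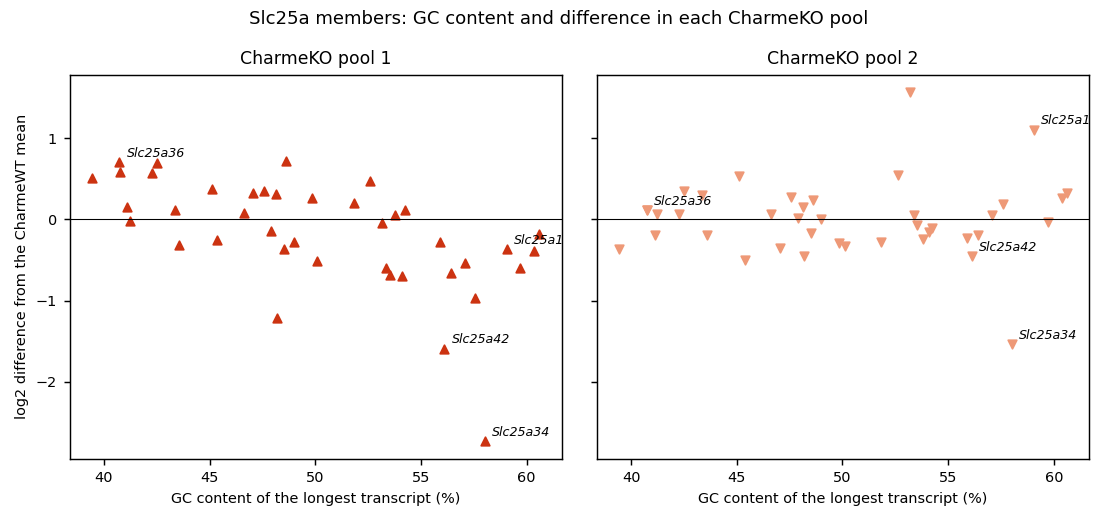
Log2 difference from the CharmeWT mean of the members, 1 of them left out (vertical), against the GC content of the longest transcript in percent (horizontal), for CharmeKO pool 1 (left) and CharmeKO pool 2 (right). The points of CharmeKO pool 1 slope downward (rho -0.67), those of CharmeKO pool 2 do not (rho 0.02), and Slc25a34 is lowest in both.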

How the data were processed

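Deposited values are raw counts of fragments per gene, whole numbers without normalization. The authors trimmed paired reads of 150 nucleotides with Cutadapt and Trimmomatic, discarded reads shorter than 35 nucleotides, and used STAR for alignment to GRCm38 and for counting on Ensembl release 87 genes with the reverse strand setting. A deposited FPKM table was not used, and FPKM was computed from the counts and GENCODE M21 lengths (49411 genes matched; 23 tested genes without a length were given 1000 bases). Genes that passed the count filter (10 counts, 2 pools) were scaled by TMM and tested with edgeR 4.0.16 in R 4.3.3 (quasi-likelihood test, all 5 pools, no covariate, Benjamini-Hochberg over 14880 genes). A call needed an adjusted p under 0.1 and either genotype's mean FPKM to reach 1, the settings of the study apart from the test, which was a likelihood ratio test there. The standard error is the size of the log2 fold change over the square root of F. DESeq2 1.42.0 and edgeR with offsets for the length and GC correction (splines of 4 degrees of freedom) served as alternatives. The fits were tested on simulated data.

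The values of 1 member are not reported here, although it entered every fit and count. Members and lists were chosen with earlier results of these data known. Members named with values were those called by either edgeR test, the 6 most abundant, up to 5 largest rises and falls without overlap, the paralogue pairs and those at the edge of the filter. Carriers whose values stood apart between the CharmeKO pools (Slc25a1, Slc25a22, Slc25a35, Slc25a36, Slc25a48), the shuttle genes Cpt2 and Cpt1a, and Mtch1 and Mtch2 were named after their values were seen. The p-values measure the spread between pools. Reads carry no molecular identifiers, so depth limits cover counting error only. Alternatives were DESeq2, the likelihood ratio test and the legacy quasi-likelihood test, RLE scaling, no count filter, filterByExpr, no FPKM minimum, an adjusted p under 0.05, removal of mitochondrial genome and salivary gland genes, the length and GC correction, a replicate block, both together, and each pool left out.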

Additional observations from a re-analysis of the deposited data

How the results depend on the processing

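The call of Slc25a34 was kept in every alternative with all 5 pools. The number of members called lower was 3 by DESeq2 and the likelihood ratio test (DESeq2's adjusted p missing for Slc25a31 and Slc25a43) and 0 to 8 with 1 pool left out. It was 0 without CharmeWT pool 1 or pool 3 and 8 without CharmeKO pool 2 (Slc25a20, Slc25a22, Slc25a23, Slc25a28, Slc25a34, Slc25a39, Slc25a42, Slc25a44). The number called higher was 0 with all pools and 0 to 4 with 1 left out, 2 without CharmeKO pool 1 (Slc25a1, Slc25a35) and 4 without CharmeKO pool 2 (Slc25a5, Slc25a24, Slc25a36, Slc25a46). A fit with 1 CharmeKO pool assumes that it varies like the CharmeWT pools. Over all genes 305 were called, against 933 by the likelihood ratio test, 1122 by DESeq2, 2 without CharmeWT pool 1, 187 without CharmeWT pool 2, 0 without CharmeWT pool 3, 639 without CharmeKO pool 1 and 4607 without CharmeKO pool 2. The split into higher and lower calls was 227 and 78, and 226 and 133 with the length and GC correction. The cause of these differences was not tested.

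The median log2 fold change of the members (-0.02) was -0.054 without a count filter, -0.090 with the length and GC correction, and -0.15 to 0.038 with 1 pool left out. With the replicate number of the labels as a block it was -0.082, and -0.14 with the block and the correction. The block kept the call of Slc25a34 (log2 fold change -2.15, adjusted p = 0.0143; -2.0 and 0.0978 with the correction) and added none, and over all genes 210 were called with the block and 29 with both. The labels do not say whether same-numbered pools share more than the number. Their deviations from the group means correlated at 0.180 (pools 1) and 0.116 (pools 2) across genes. With 2 CharmeKO pools these deviations mirror each other, so the crossed pairs gave -0.180 and -0.116 by construction. The values therefore cannot decide whether the pools were paired.

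Members with values near 0 changed sign. With the block Slc25a12 was at -0.0095, Slc25a13 -0.068, Slc25a10 -0.0084 and Slc25a31 0.11. With the correction Slc25a11 was at 0.0089, Slc25a13 -0.11, Slc25a16 -0.014, Slc25a40 -0.21 and Slc25a32 -0.22. With both Slc25a12 was at -0.073, Slc25a13 -0.20, Slc25a16 -0.00051, Slc25a40 -0.29 and Slc25a32 -0.27. Without a count filter Slc25a13 was at -0.0088 and Slc25a29 at -0.025, and Slc25a29 was at -0.028 by DESeq2, -0.026 by the legacy test and -0.022 by the likelihood ratio test.

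With 1 pool left out, members changed sign, and their log2 fold changes ranged over -0.28 to 0.19 (Slc25a4), -0.11 to 0.14 (Slc25a11), -0.0092 to 0.11 (Slc25a12), -0.36 to 0.32 (Slc25a13), -0.15 to 0.015 (Slc25a51), -0.21 to 0.31 (Slc25a10), -0.63 to 0.041 (Slc25a44), -0.39 to 1.13 (Slc25a1), -0.29 to 0.11 (Slc25a33), -1.02 to 0.19 (Slc25a22), -0.32 to 0.056 (Slc25a25), -0.39 to 0.52 (Slc25a40), -0.66 to 0.045 (Slc25a47), -0.45 to 0.40 (Slc25a27), -0.029 to 0.079 (Slc25a32), -0.57 to 0.33 (Slc25a29), -0.14 to 1.72 (Slc25a35), -0.35 to 0.20 (Slc25a31). The log2 difference of the ratio of Slc25a12 to Slc25a13 ranged over -0.25 to 0.42. The other 5 ratios kept their direction with any pool left out (leave-one-out alternatives chosen after seeing the data).
The alternative of taking levels from the deposited FPKM table was not run, because that table was not used.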

Other observations

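The carriers reach the inner membrane through their own import route, and 13 genes of it were tested, from the receptors of the outer membrane to the small chaperones of the intermembrane space and the TIM22 insertase. None was called by the quasi-likelihood test, the likelihood ratio test or DESeq2 (1 at an unadjusted p under 0.05). The log2 fold change was positive in 10, as in 51.8% of all genes tested (median 0.21, against 0.02), and in 6 both CharmeKO pools were above every CharmeWT pool, as in 17.8% of all genes. The median log2 difference from the CharmeWT mean was 0.31 in CharmeKO pool 1 and 0.11 in CharmeKO pool 2. The part of GC content in these values was not tested. Timm8b, the most abundant, was at 164, 148 and 135 FPKM in CharmeWT pools and at 239 and 159 FPKM in CharmeKO pools (log2 fold change 0.41, standard error 0.207, adjusted p = 0.312).

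Of 21 other transporters of the mitochondrial membranes none was called by any of these tests (3 at an unadjusted p under 0.05, all positive, where 10.6% of all genes were), and 14 had a positive log2 fold change (median 0.17), as did 51.8% of all genes. Their median log2 difference from the CharmeWT mean was 0.21 in CharmeKO pool 1 and 0.10 in CharmeKO pool 2, and the part of GC content was not tested here either. The most abundant, the outer membrane channel Vdac1, was at 317, 309 and 284 FPKM in CharmeWT pools and at 306 and 232 FPKM in CharmeKO pools (log2 fold change -0.17, adjusted p = 0.664).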
